A study of Sus scrofa with 12 samples.

Results

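Serine synthesis and the folate-bound one-carbon pathway were followed through 10 enzyme genes in porcine granulosa cells, which line the follicle of the ovary and nourish its oocyte. The members were chosen by gene name (PHGDH, PSAT1, PSPH, SHMT1, SHMT2, MTHFD1, MTHFD1L, MTHFD2, ALDH1L2 and TYMS), and all 10 were present among the 18060 genes of the deposited expression table. The cells were primary cultures taken from the antral follicles of crossbred sows that were sexually mature (Duroc × Yorkshire × Landrace), grown in medium with fetal bovine serum. For 12 h they were kept either in normoxia, with 21% O2 and 74% N2, or in hypoxia, with 1% O2 and 94% N2, both with 5% CO2. From the 3 biological replicates of a condition, poly(A) RNA was sequenced both as input and after being pulled down with an antibody to N6-methyladenosine, or m6A, the methylated form of adenosine found in many mRNAs. The sources used here do not say whether replicates stem from separate sows, so p-values measure the spread between these cultures.

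Cells make serine from the glycolytic intermediate 3-phosphoglycerate in a short chain of reactions: PHGDH oxidises it, PSAT1 transaminates the product and PSPH removes the phosphate. Serine hydroxymethyltransferases then pass a carbon of serine to tetrahydrofolate, SHMT1 in the cytosol and SHMT2 in mitochondria. In mitochondria MTHFD2 and MTHFD1L oxidise this unit and release it as formate, and ALDH1L2 oxidises it to carbon dioxide with formation of NADPH. In the cytosol MTHFD1 takes up formate and interconverts the folate forms, and TYMS uses a unit to make thymidylate for DNA. Rapidly growing cells use the pathway for purines, thymidylate, glycine and NADPH, and several of its genes are known targets of the stress-responsive transcription factor ATF4.

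RNA levels are given as FPKM (fragment counts divided by transcript length and sequencing depth), so that levels of different genes can be set side by side. Library totals of FPKM ran from 294929 to 326804, and the number of reads behind them is unknown. Hypoxia library 3 stood apart: its median-ratio factor, the typical level of its genes against the other libraries, was 0.747, while the other 5 lay between 0.942 and 1.15. Results are therefore also given without it or after dividing by these factors. Among markers of the labelled cell type, FSHR, FOXL2, GATA4, NR5A1, INHA, INHBA and INHBB were each above 1 FPKM in all libraries. AMH and CYP19A1 had means of at most 0.233 FPKM, and HSD17B1 had 0.386 in normoxia and 0.763 in hypoxia. AMHR2 went from a mean of 2.72 to 0.784 FPKM and NR5A2 from 1.90 to 0.878. Of the granulosa list 2 of 9 tested genes were lower in hypoxia and 1 higher by limma at an adjusted p under 0.05 (0 and 1 after scaling). Lower were FSHR, with a log2 fold change of -0.72, and AMHR2 (-1.07), and INHBB was higher (0.90). Over all tested genes 21.1% were lower and 5.4% higher by this rule, or 8.07% and 6.64% after scaling. The FSHR call was lost without normoxia library 3 or hypoxia library 1. That of AMHR2 was lost without normoxia library 2 or 3 or hypoxia library 1. Summed levels of the granulosa list were 99.8 to 110.4 FPKM in normoxia and 104 to 116 in hypoxia. Summed endothelial markers went from 6.95 to 7.27 FPKM in normoxia to 3.34 to 3.46 in hypoxia, with PECAM1 the 1 tested gene of 7 in the table, and leukocyte markers were at 3.75 to 5.30 and 3.86 to 7.80 FPKM. Theca markers summed to 9.10 to 14.5 and 12.0 to 27.8 FPKM, and oocyte markers to 1.12 to 1.41 and 0.560 to 1.33. The fibroblast and smooth muscle list was at 7551 to 9337 FPKM in normoxia and 3852 to 4874 in hypoxia. This sum was mostly the actin gene ACTA2, with means of 7642 and 3477 FPKM. Means of other genes in this list were also high: COL3A1 308 and 325 FPKM, DCN 231 and 198, COL1A1 184 and 286, and MYH11 76.8 and 46.6. LUM, PDGFRA and DES had means of at most 8.50 FPKM. The highest means in the granulosa list were lower, 28.9 FPKM in normoxia (INHBA) and 31.5 in hypoxia (INHBB). Of the 8 tested fibroblast and smooth muscle genes 2 were lower (ACTA2 and DES) and 2 higher (COL1A1 at 0.62 and PDGFRA at 0.84), or 1 and 2 after scaling. The DES call held with no library left out except hypoxia library 3, and was lost at pseudocounts of 0.1 and 0.5 and with no filter. That of COL1A1 was lost without any of the normoxia libraries, and that of PDGFRA without normoxia library 2 or hypoxia library 1. The part of these cells in the enzyme values was not tested. In bulk RNA, fewer expressing cells and less RNA per cell cannot be told apart.

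In hypoxia 6 of the 9 tested enzyme transcripts were lower and 0 were higher, also 0 at an unadjusted limma p under 0.05. These were the 3 genes of serine synthesis, SHMT2 and MTHFD1L in mitochondria, and MTHFD1 in the cytosol. Over all 10196 tested genes 21.1% were lower and 5.4% higher by the same rule (limma, adjusted p under 0.05). After median-ratio scaling the same 6 members were lower, against 8.07% of all genes lower and 6.64% higher. The median log2 fold change of all tested genes was -0.26 as deposited and -0.02 after scaling, a shift of -0.25. For 8 of 10 members all hypoxia values lay below all normoxia values, where the same held for 24.2% of all genes in the table. Of the 9 tested members 7 did so, against 34.9% of tested genes. The 6 members were each called lower with any single library left out. The share of all genes called lower was then 11.6%, 7.83% and 10.1% without normoxia libraries 1, 2 and 3, and 10.4%, 22.7% and 31.2% without hypoxia libraries 1, 2 and 3. It was 19.9% and 20.6% with pseudocounts of 0.1 and 0.5, 21.6% without the variance trend, 25.3% among genes with a mean of at least 5 FPKM, 11.6% with no filter and 27.1% with the replicate number as a block.

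**Figure D1:**
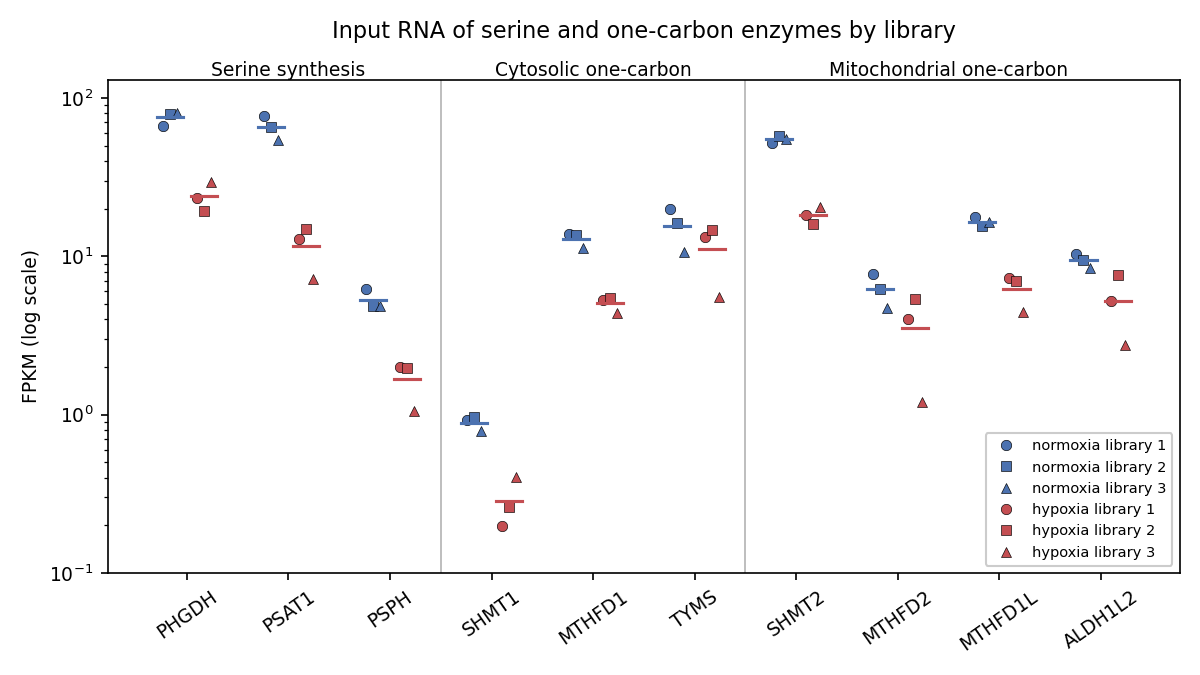
Input RNA level of each enzyme gene in every library, in FPKM on a log scale, with normoxia in blue and hypoxia in red; symbols mark the library number and short lines the mean of 3 libraries. Hypoxia lies wholly below normoxia for 8 genes, and the conditions overlap for TYMS and MTHFD2.

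All 3 serine synthesis genes fell, and PSAT1 had the largest fall of the tested members. PSAT1 (ENSSSCG00000005287, chromosome 1, 231142625 to 231172360) had 77.0, 65.5 and 54.2 FPKM in normoxia libraries 1 to 3 and 12.9, 14.8 and 7.23 FPKM in hypoxia. Hypoxia values were all far below the lowest normoxia value. Its mean was 5.63 times higher in normoxia, and its log2 fold change, -2.44 with an SE of 0.271 (limma adjusted p = 0.00151), ranked 13 from the lowest of the 10196 tested genes. After scaling the log2 fold change was -2.14, and without hypoxia library 3 it was -2.15.

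PHGDH, the gene of the enzyme that commits carbon to serine, had the highest mean of the members in both conditions. Its values overlapped those of PSAT1 in normoxia and of SHMT2 in hypoxia. PHGDH (ENSSSCG00000006717, chromosome 4, 101444693 to 101478144) had 66.8, 79.7 and 79.8 FPKM in normoxia and 23.4, 19.2 and 29.7 in hypoxia. The groups were far apart, and the mean fell by 68.0%. The log2 fold change was -1.62 (SE 0.187, limma adjusted p = 0.00162), or -1.32 after scaling (adjusted p = 0.0192).

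PSPH, the gene of the last step, stood at a far lower level than the first 2 genes of the chain. PSPH (ENSSSCG00000007748, chromosome 3, 16877923 to 16907952) had 6.22, 4.84 and 4.88 FPKM in normoxia and 2.00, 1.96 and 1.05 in hypoxia. Its lowest normoxia library was more than double its highest hypoxia library, and the log2 fold change was -1.26 (SE 0.211, limma adjusted p = 0.00599). The mean fell by 68.6%, a change that the log2 scale of FPKM + 1 understates at such low levels. An unnamed gene on the opposite strand (ENSSSCG00000036659) overlaps PSPH over 15304 bases and had 18.5 FPKM in normoxia and 14.5 in hypoxia. The library preparation marks strand, but the sources used here do not say whether counting used it, so the PSPH level is uncertain.

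Of 6 ratios between members that were computed, 1 had values that did not overlap between the conditions. PSAT1 over PSPH was 12.3 ± 1.21 in normoxia (SD, n = 3 libraries) and 6.97 ± 0.580 in hypoxia. The 2 groups did not overlap, with an exact two-sided permutation p of 0.1, the smallest that 3 against 3 libraries can give, and 0.6 when adjusted over the 6 ratios. PHGDH over PSPH was 14.5 ± 3.27 and 16.6 ± 10.1, and these values overlapped. The ratio of PHGDH to PSAT1 was 1.19 ± 0.303 in normoxia and 2.41 ± 1.49 in hypoxia, where library 3 was highest and the conditions overlapped. The summed FPKM of the 3 genes went from 146 ± 6.42 to 37.4 ± 1.20, which describes PHGDH and PSAT1, since PSPH adds little to it.

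In the mitochondrial branch SHMT2 and MTHFD1L fell, while MTHFD2 and ALDH1L2 did not pass the test. SHMT2 (ENSSSCG00000037077, chromosome 5, 22532894 to 22540319), the mitochondrial entry point of serine carbon, had 51.8, 57.2 and 55.2 FPKM in normoxia and 18.2, 15.9 and 20.5 in hypoxia. Both groups were tight, and the difference was many times the spread within either. The log2 fold change was -1.54 (SE 0.146, limma adjusted p = 0.000778), the lowest adjusted p among the members, and -1.24 after scaling (adjusted p = 0.0114). NDUFA4L2 lies over part of SHMT2 on the opposite strand and had 0.0173 FPKM in normoxia and 0.635 in hypoxia, far under the SHMT2 level.

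MTHFD1L, which releases formate for export to the cytosol, followed at a lower level. MTHFD1L (ENSSSCG00000004092, chromosome 1, 15140899 to 15329986) had 17.7, 15.5 and 16.4 FPKM in normoxia and 7.31, 7.01 and 4.45 in hypoxia. The conditions did not overlap, and the log2 fold change was -1.30 (SE 0.198, limma adjusted p = 0.00440), or -1.02 after scaling.

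MTHFD2 and ALDH1L2 varied more within hypoxia. MTHFD2 (ENSSSCG00000008289, chromosome 3, 68818119 to 68833600), the dehydrogenase and cyclohydrolase that precedes MTHFD1L, had 7.78, 6.19 and 4.68 FPKM in normoxia and 4.02, 5.34 and 1.20 in hypoxia. Hypoxia library 2 lay above normoxia library 3, so the groups overlapped, and the log2 fold change was -0.79 (SE 0.399, limma adjusted p = 0.198). Without hypoxia library 3 it was -0.33 (adjusted p = 0.203).

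ALDH1L2, the formyl-tetrahydrofolate dehydrogenase, was lower in every hypoxia library and still missed the threshold. ALDH1L2 (ENSSSCG00000000839, chromosome 5, 79492750 to 79558701) had 10.3, 9.51 and 8.40 FPKM in normoxia and 5.22, 7.67 and 2.76 in hypoxia, and its log2 fold change was -0.82 (SE 0.300, adjusted p = 0.0881 by limma). The call depended on the hypoxia libraries: adjusted p was 0.0389 without library 3 (log2 fold change -0.50) and 0.0185 without library 2 (-1.10). NOPCHAP1 overlaps the end of ALDH1L2 on the opposite strand over 8644 bases, at 2.46 FPKM in normoxia and 2.06 in hypoxia. The summed FPKM of the 4 mitochondrial genes was 86.9 ± 1.98 in normoxia and 33.2 ± 3.74 in hypoxia, mostly SHMT2.

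**Figure D2:**
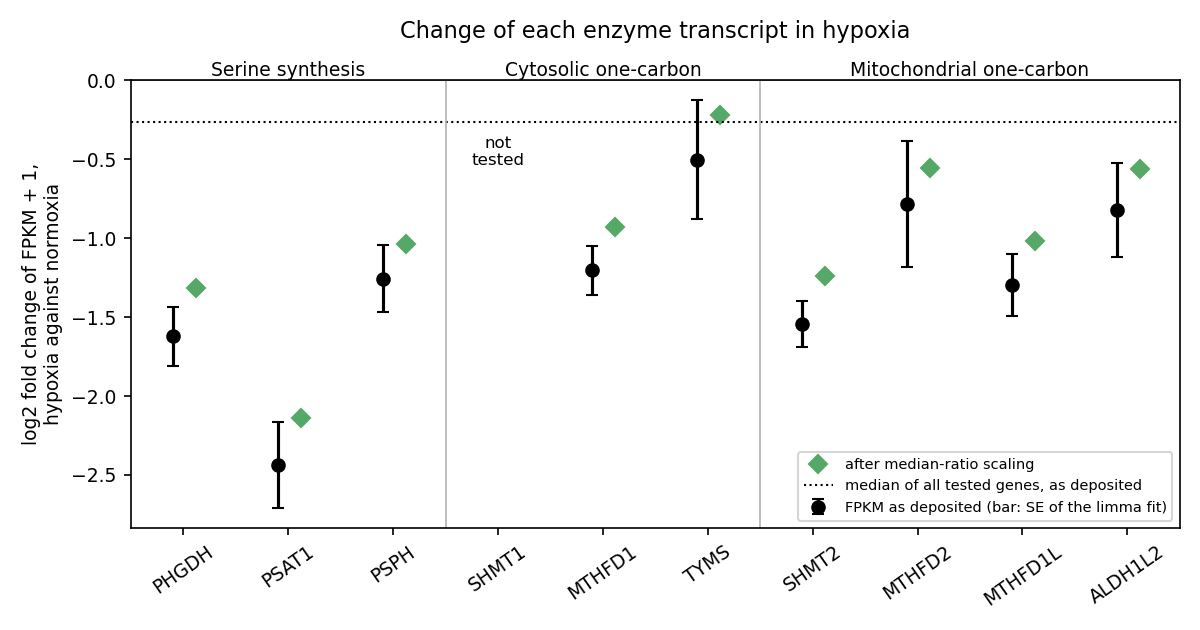
Log2 fold change of FPKM + 1 in hypoxia against normoxia for the 9 tested genes, with the SE of the limma fit as bars (black) and the value after median-ratio scaling (green); the dotted line is the median of all tested genes, -0.26. PSAT1 is lowest at -2.44, and TYMS at -0.50 lies within 1 SE of that median.

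In the cytosolic branch MTHFD1 fell, TYMS did not pass and SHMT1 was too low to be tested. MTHFD1 (ENSSSCG00000002269, chromosome 7, 88471414 to 88537387), the trifunctional enzyme that recharges tetrahydrofolate with formate, had 13.8, 13.6 and 11.3 FPKM in normoxia and 5.27, 5.44 and 4.40 in hypoxia. The lowest normoxia library was more than double the highest hypoxia library, and the log2 fold change was -1.20 (SE 0.158, adjusted p = 0.00241 by limma), or -0.93 after scaling. MTHFD1 and its mitochondrial counterpart MTHFD1L had a ratio of FPKM of 0.782 ± 0.0925 in normoxia and 0.828 ± 0.141 in hypoxia, with overlapping values.

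TYMS, thymidylate synthase, had the smallest change of the tested members. TYMS (ENSSSCG00000040678, chromosome 6, 105642381 to 105660578) had 19.8, 16.1 and 10.7 FPKM in normoxia and 13.2, 14.8 and 5.52 in hypoxia. The groups overlapped, and library 3 was the lowest in each condition. The log2 fold change was -0.50 (SE 0.376, limma adjusted p = 0.379), -0.22 after scaling and -0.10 without hypoxia library 3 (adjusted p = 0.733). ENOSF1, which overlaps TYMS on the opposite strand over 2733 bases, had 1.92 FPKM in normoxia and 1.38 in hypoxia.

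SHMT1, the cytosolic hydroxymethyltransferase, was the lowest of the 10 genes. SHMT1 (ENSSSCG00000036208, chromosome 12, 60416463 to 60435450) had 0.920, 0.962 and 0.786 FPKM in normoxia and 0.196, 0.262 and 0.401 in hypoxia. All hypoxia values were below all normoxia values, but no library reached the 1 FPKM that the test required. With no filter on low FPKM its log2 fold change was -0.56 (limma adjusted p = 0.0157), on a scale that understates the change of such low genes. SMCR8 overlaps the end of SHMT1 on the opposite strand over 178 bases and had more RNA than SHMT1, 3.67 FPKM in normoxia and 2.32 in hypoxia, so the SHMT1 level is uncertain too. SHMT2 exceeded SHMT1 by a factor of 62.0 ± 7.24 in normoxia and 68.2 ± 21.6 in hypoxia, and these ratios overlapped. The summed FPKM of the 3 cytosolic genes was 29.3 ± 6.00 in normoxia and 16.5 ± 5.42 in hypoxia. The difference between the branches was not tested.

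The order of levels was nearly the same in both conditions. In normoxia it ran from PHGDH over PSAT1, SHMT2, MTHFD1L, TYMS, MTHFD1, ALDH1L2 and MTHFD2 to PSPH and SHMT1. Clear steps without overlap lay in normoxia between SHMT2 and MTHFD1L, between MTHFD1 and ALDH1L2, between ALDH1L2 and MTHFD2, and between PSPH and SHMT1. The other neighbours overlapped in at least 1 library. In hypoxia SHMT2 ranked above PSAT1, TYMS ranked above MTHFD1L and ALDH1L2 above MTHFD1. The steps without overlap were then those from SHMT2 to PSAT1 and from PSPH to SHMT1, and the other neighbours overlapped.

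The members differed in how hypoxia library 3 stood to hypoxia libraries 1 and 2. In this library 7 members were lower than the mean of the other two and 3 were higher. MTHFD2 was at 0.256 of that mean, TYMS at 0.395, ALDH1L2 at 0.428, PSAT1 at 0.522, PSPH at 0.531, MTHFD1L at 0.621 and MTHFD1 at 0.821. PHGDH was at 1.39, SHMT2 at 1.20 and SHMT1 at 1.75. Over all tested genes the median of this ratio was 0.835, with quartiles of 0.467 and 1.25, so the spread among the members was of the size seen over all genes. In normoxia library 3 the same genes ranged from 0.594 (TYMS) to 1.09 (PHGDH). What set library 3 apart was not tested.

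**Figure D3:**
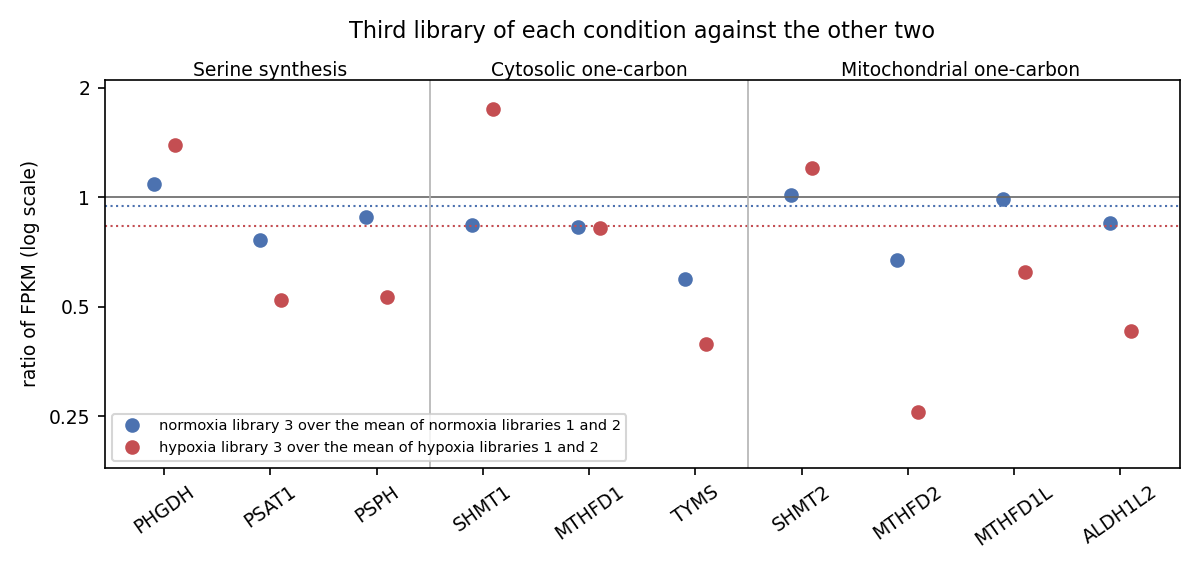
FPKM of library 3 divided by the mean of libraries 1 and 2 of the same condition, on a log scale, for each gene in normoxia (blue) and hypoxia (red); dotted lines are the medians over all tested genes, 0.943 and 0.835. In hypoxia MTHFD2 is lowest at 0.256 and SHMT1 highest at 1.75.

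The authors' deposited table of expression changes gave the same directions. In the authors' deposited table all 10 members were lower in hypoxia, and 7 had a q-value under 0.05, against 6.88% of all genes lower at that level. These were the 6 genes above and SHMT1, for which the authors' deposited table lists a log2 fold change of -1.63 and a q-value of 0.0288. In the authors' deposited table ALDH1L2 had a q-value of 0.145, MTHFD2 0.326 and TYMS 0.698.

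Genes whose profile over the 6 libraries was nearest to that of the most abundant member of each branch were listed by the root mean square difference of their mean-centred log2(FPKM + 1). Nearest to PHGDH were RRP9 (0.0680) and NOC4L (0.0720), both of ribosome assembly, and RASL10B (0.0795). SHMT2 was most closely followed by CIAPIN1 (0.0420), a factor of iron-sulfur protein assembly, an unnamed gene (ENSSSCG00000056471, 0.0556) and the acetyltransferase gene KAT2A (0.0563). An unnamed gene (ENSSSCG00000041398, 0.0743), YWHAZ (0.0766) and C4orf33 (0.0805) were nearest to TYMS. YWHAZ, which codes for a 14-3-3 adaptor protein, had 80.5, 71.6 and 50.4 FPKM in normoxia and 56.1, 69.9 and 25.0 in hypoxia, with library 3 lowest in each condition as for TYMS.

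The deposited m6A peak lists held peaks on 5 of the 10 members and none on PHGDH, PSAT1, SHMT2, MTHFD2 or TYMS. A peak in either list was found for 67.6% of all genes with expression values. The 3 most abundant members were thus without a listed peak in both conditions. The normoxia list held 8 peaks on 5 members and the hypoxia list 9 peaks on 4 members. Enrichments are the authors' log2 values of immunoprecipitate over input for each peak, which have no value per library. Their medians over all peaks were 2.08 in normoxia and 2.27 in hypoxia, and most peaks of the members lay under these. Peak positions are on build Sscrofa11.1, 1-based, and a span can include introns.

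MTHFD1 carried the most peaks. A peak annotated to the 5′ UTR spanned chromosome 7, 88471534 to 88485340 in normoxia (log2 enrichment 0.72) and began at 88471504 in hypoxia (1.18). It was the 1 member peak in the authors' deposited table of differential peaks, with a log2 difference of 0.56 toward hypoxia, an unadjusted p of 0.00661 and an adjusted p of 0.0955, so it did not pass an adjusted threshold of 0.05. Of all genes with a peak in either list 8.85% had a differential peak, and 1 of 5 members did. Exonic peaks ended at 88504087 (0.39 in both lists, adjusted p = 0.0813 in the authors' hypoxia list) and at 88515441 (0.93 in normoxia, 1.10 in hypoxia). The hypoxia list alone held a 3′ UTR peak at 88533502 to 88533651 (1.15), where ZBTB25 overlaps on the opposite strand. These enrichments were found on a transcript whose input level was lower in hypoxia by 61.0%.

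ALDH1L2 and MTHFD1L had peaks toward the ends of their genes. On ALDH1L2 a 3′ UTR peak at chromosome 5, 79551798 to 79554534 in normoxia (1.26) overlapped a shorter one at 79551828 to 79551948 in hypoxia, annotated as exonic (1.54). A second 3′ UTR peak lay at 79558372 to 79558432 in normoxia (0.84) and, without overlap, at 79558611 to 79558701 in hypoxia (2.74). All 4 ALDH1L2 peaks lie where NOPCHAP1 runs on the opposite strand. MTHFD1L had a 3′ UTR peak at the last bases of the gene in both lists, chromosome 1, 15140899 to 15140959 in normoxia (1.42) and to 15141018 in hypoxia (1.21, adjusted p = 0.0575 in the authors' list). An exonic MTHFD1L peak at 15255357 to 15255476 was listed in hypoxia alone (0.53).

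PSPH and SHMT1 had a single peak per list at most. PSPH had a 5′ UTR peak from its first base, chromosome 3, 16877923 to 16878073, in normoxia (0.93) and none in the hypoxia list. The PSPH RNA level was lower in hypoxia, and whether this bears on the missing peak was not tested. SHMT1 had a 3′ UTR peak at chromosome 12, 60434731 to 60434911 in normoxia (2.25) and 60434701 to 60434941 in hypoxia (3.04, adjusted p = 0.211 in the authors' list). The SHMT1 enrichments are shared to 6 decimals by 257 peaks of the normoxia list and 701 of the hypoxia list, and the gene had under 1 FPKM. Enrichments of the other member peaks are shared in the same way, each by 7 to 135 peaks of its list. The MTHFD1 value of 0.39, equal in both lists, is held by 19 normoxia and 7 hypoxia peaks. How finely enrichments were measured is therefore unknown. In all, 6 pairs of peaks overlapped between the lists, with a higher enrichment in hypoxia for 4, SHMT1 among them, the same for 1 and a lower one for 1. The same count over all genes was not made, and the median over all peaks was also higher in hypoxia (2.27 against 2.08). Apart from the MTHFD1 5′ UTR peak none was listed as differential.

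**Figure D4:**
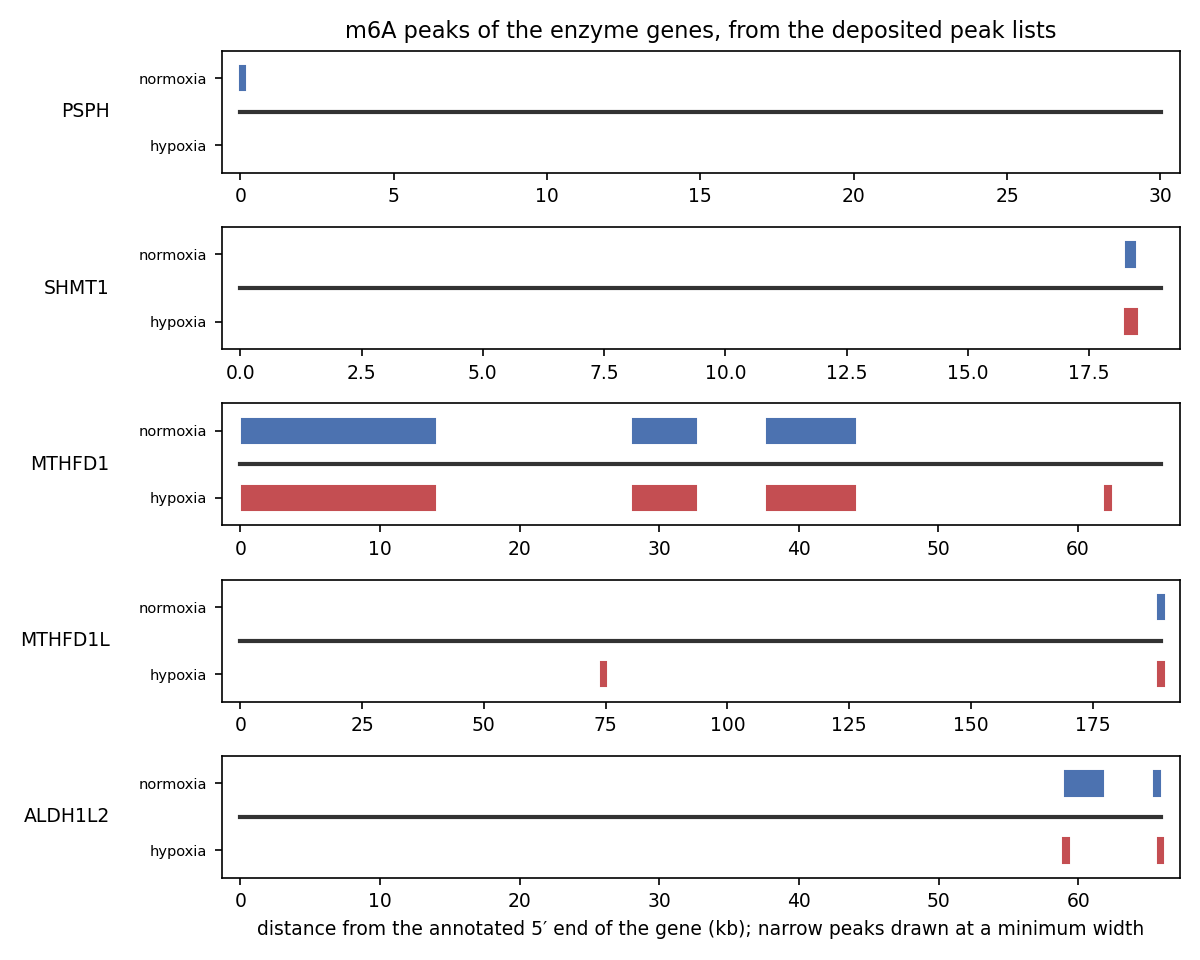
m6A peaks of the 5 enzyme genes that have any, drawn by distance in kb from the annotated 5′ end of the gene, with normoxia peaks in blue above the gene line and hypoxia peaks in red below it. MTHFD1 has 3 normoxia and 4 hypoxia peaks, and PSPH has a peak in normoxia alone.

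Genes around the enzymes were followed in 5 lists. Over all tested genes 21.1% were lower and 5.4% higher, or 8.07% and 6.64% after scaling. The share lower was 25% in the folate list, near that of all genes, and 35.7% in the glycine and methionine list. It was 40% in purine and thymidylate synthesis, 74.2% in the amino acid response and 66.7% in S phase. Of 14 genes of folate uptake, activation and other folate enzymes 11 were in the table and 8 were tested, with 2 lower and 1 higher (0 and 1 after scaling) and a median log2 fold change of -0.11, against -0.26 for all tested genes. MTHFS, which returns 5-formyltetrahydrofolate to the folate pool, had 8.50, 7.88 and 7.31 FPKM in normoxia and 23.6, 21.1 and 16.6 in hypoxia. It rose by 1.26 on the log2 scale (SE 0.171, adjusted p = 0.00277 by limma), and by 1.55 after scaling, against the direction of the enzymes. The folate carrier gene SLC46A1 had -0.68 (adjusted p = 0.0357, 0.286 after scaling) and the polyglutamate synthase gene FPGS -0.73 (adjusted p = 0.0456, 0.294 after scaling). Both calls were lost without any of the normoxia libraries or hypoxia libraries 1 or 2, with adjusted p of 0.0675 to 0.159 for SLC46A1 and 0.0836 to 0.173 for FPGS. The isoenzyme genes MTHFD2L and ALDH1L1 had means of at most 0.175 FPKM in either condition, far below MTHFD2 and ALDH1L2.

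In glycine cleavage, serine transport, the methionine cycle and transsulfuration 5 of 14 tested genes were lower and 0 higher (4 and 0 after scaling), with a median of -0.39. The count does not describe glycine cleavage: GLDC and AMT were too low to be tested and GCSH had no expression values. DLD was tested and its values overlapped (-0.40, limma adjusted p = 0.413). CTH, which makes cysteine from cystathionine, had 10.9, 10.5 and 8.90 FPKM in normoxia and 2.27, 3.29 and 0.549 in hypoxia, and its log2 fold change was -1.99 (SE 0.364, adjusted p = 0.00846 by limma). The groups were wide apart, with library 3 lowest in hypoxia. The neutral amino acid transporter gene SLC1A5 had 33.3 ± 5.26 FPKM in normoxia and 11.4 ± 2.71 in hypoxia (-1.48, adjusted p = 0.00358). The serine transporter gene SLC1A4 had 5.86 ± 0.472 and 2.20 ± 0.861 FPKM (-1.14, adjusted p = 0.0131; 0.0670 without normoxia library 2 and 0.0572 without 3). MAT2A, which makes S-adenosylmethionine, the methyl donor of m6A, had 39.6, 36.5 and 32.6 FPKM in normoxia and 11.7, 17.8 and 3.72 in hypoxia (-1.84, adjusted p = 0.0273). Its call was lost without normoxia library 1 (0.0936), 2 (0.0987) or 3 (0.0734) and without hypoxia library 1 (0.0681), and with no filter on low FPKM (0.0599).

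In the list of purine and thymidylate synthesis 6 of 15 tested genes were lower and 0 higher (3 and 0 after scaling), with a median of -0.53. Only some of these enzymes take a unit from folate, so the count does not describe users of folate-bound carbon as a group. GART, named after its values were seen, had 6.18 FPKM in normoxia and 8.02 in hypoxia, with overlapping values (0.30, limma adjusted p = 0.367). ATIC, which takes a formyl group from folate in the last steps of purine synthesis, had 8.63 ± 1.17 FPKM in normoxia and 3.36 ± 0.640 in hypoxia (-1.15, SE 0.183, adjusted p = 0.00487 by limma). ADSS2, of AMP synthesis, changed by -1.39 (adjusted p = 0.00581), the thymidine kinase gene TK1 by -1.37 (0.00621) and the thymidylate kinase gene DTYMK by -0.95 (0.00638, 0.0656 after scaling). TK1 and DTYMK act beside and after TYMS in thymidine nucleotide supply. Of 15 tested S phase genes, which mark DNA replication, 10 were lower and 0 higher (9 and 1 after scaling), with a median of -0.95. MCM6 changed by -1.61, PCNA by -1.57, MCM2 by -1.39 and UHRF1 by -1.27. The calls of PCNA and MCM6 were lost without normoxia library 1 (0.0821 and 0.0933) or 2 (0.0862 and 0.0907) and hypoxia library 1 (0.0526 and 0.0704), that of MCM6 also without normoxia library 3 (0.0548) or with no filter (0.0519), and that of UHRF1 without normoxia library 1 (0.0526) or 2 (0.0635). Whether TYMS differs in its change from these genes was not tested.

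The amino acid response list held ATF4 and genes reported as its targets. Of 31 tested genes 23 were lower, ATF4 among them, and 1 was higher (17 and 2 after scaling), with a median of -1.10. The tRNA synthetase gene WARS1 had 73.9 ± 2.55 FPKM in normoxia and 13.5 ± 2.32 in hypoxia (-2.38, SE 0.162, adjusted p = 0.000250 by limma), and the leucine transporter gene SLC7A5 24.7 ± 2.95 and 4.68 ± 1.22 (-2.19, adjusted p = 0.000729). MARS1 at -2.64 and NUPR1 at -2.50 were the others of the 4 largest falls. STC2, a secreted glycoprotein gene, rose by 1.27 (adjusted p = 0.00626), and VLDLR, named after its values were seen, was the second higher gene after scaling (0.70, adjusted p = 0.0343 after scaling). ATF4 itself had 307, 302 and 299.9 FPKM in normoxia and 204, 192 and 127 in hypoxia. The 3 normoxia values were close together, and all hypoxia values lay below them. Its log2 fold change was -0.82 (SE 0.195, adjusted p = 0.0215), but -0.51 after scaling (adjusted p = 0.0987), with 0.0812, 0.0886 and 0.0739 without normoxia libraries 1, 2 and 3. MYC, another regulator of the enzymes, had 15.0 ± 2.81 and 16.0 ± 1.34 FPKM (0.09, adjusted p = 0.734). The lists are descriptions, and several of these genes were known from earlier results of these data.

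**Figure D5:**
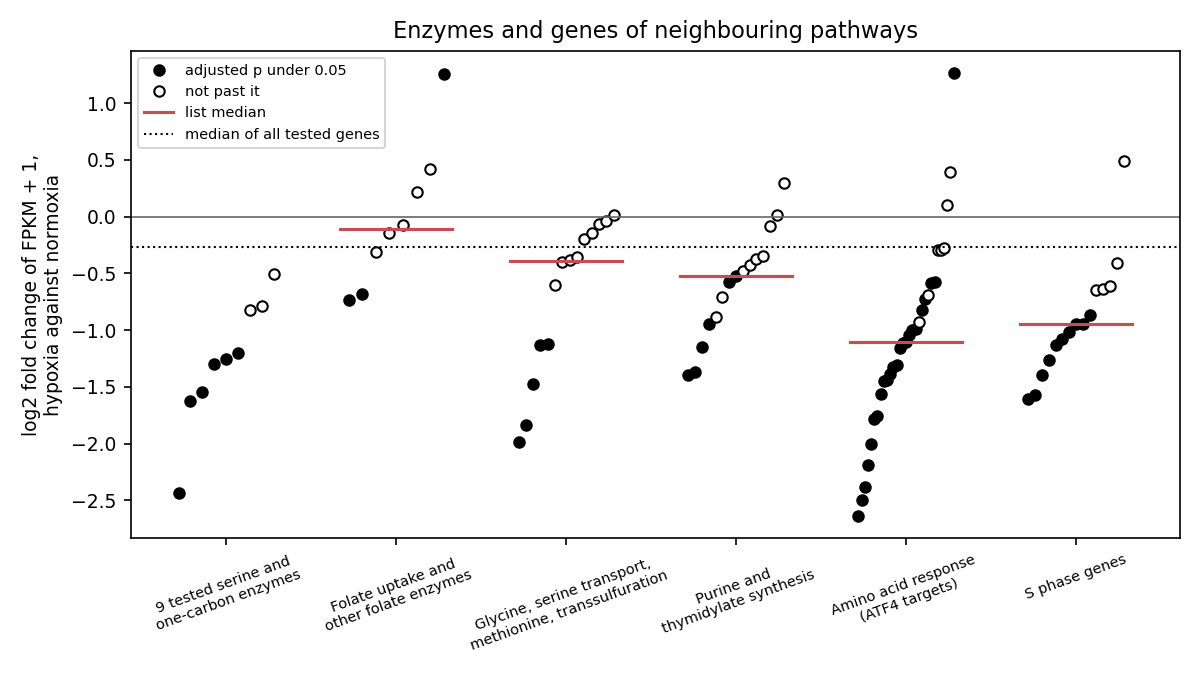
Log2 fold change of FPKM + 1 in hypoxia against normoxia of the 9 tested enzymes and of the tested genes of 5 neighbouring lists, each gene a point, filled where the limma adjusted p was under 0.05; red lines are list medians and the dotted line the median of all tested genes. Among the 5 neighbouring lists the amino acid response list has the lowest median, -1.10, and the folate list the highest, -0.11, with MTHFS at 1.26.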

How the data were processed

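The FPKM values of the 6 input libraries were used as deposited; the submitters' processing notes name build Sscrofa11.1, StringTie 2.1.2, HISAT2 2.0.4, HOMER 4.10, edgeR 4.1, FastQC and fastp 0.19.4, without saying which made which table. The authors' deposited comparison table gives a fold change (ratio), its log2 value, a p-value and a q-value per gene. The authors' deposited peak lists give log2 enrichment, p-value and adjusted p-value per peak, with peaks at an unadjusted p up to 0.0490; caller and pooling: not given in the sources used here. Of 18060 genes 13660 carried a symbol and 120 more were matched by identifier. Low FPKM were searched for whole-read steps, and the most frequent ratio between 2 libraries was shared by 10 of 949 low genes, so depth is unknown and no counting interval is given.

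Input RNA was compared with limma 3.58.1 in R 4.3.3 (variance trend, robust estimation) on log2(FPKM + 1), for genes that reached 1 FPKM in 3 or more libraries, adjusted by the Benjamini-Hochberg method over all 10196 tested genes; the script was tested on simulated data. Fold changes are on that scale and understate low genes. All 10 members lie at the position of the RefSeq entry of the same symbol in Sscrofa11.1. Peaks were matched by gene; 3369 normoxia peaks start 1 base before the gene and 0 at it, so starts were raised by 1 base. Alternatives were median-ratio scaling, pseudocounts of 0.1 and 0.5, no filter, a mean of at least 5 FPKM, eBayes without trend, the replicate block, and leaving out each library. All members are named, and of each list up to 4 called genes per direction by size. Members and lists were chosen with earlier results of these data known. Sequences are not used here.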

Additional observations from a re-analysis of the deposited data

How the results depend on the processing

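The 6 member calls were made under every alternative in which the genes were tested; with a mean of at least 5 FPKM, PSPH was not tested and 5 remained. With a library left out, 6 to 7 members were lower and 0 higher, the seventh being ALDH1L2. Over all genes 2699 were called, 1500 after median-ratio scaling, 1799 with a mean of at least 5 FPKM, and 1132 to 4329 with a library left out (1546, 1132 and 1394 without normoxia libraries 1, 2 and 3, and 1420 and 4329 without libraries 1 and 3 of hypoxia). The folate list had 0 lower genes after scaling, 1 at a pseudocount of 0.1, 0 with no filter and 0 with a mean of at least 5 FPKM (0 to 2 with a library left out). With a library left out, the glycine and methionine list had 3 to 6 lower genes, purine and thymidylate synthesis 4 to 8 lower and 0 to 1 higher, the amino acid response 14 to 24 lower and 1 to 2 higher, and S phase 5 to 12 lower and 0 to 1 higher. After scaling, purine and thymidylate synthesis had 3 lower, the amino acid response 2 higher and S phase 1 higher (MCM4); S phase had 5 lower with a mean of at least 5 FPKM. Of 17 member peaks 14 had an adjusted p under 0.05, and 3 of the 6 overlapping pairs remained.

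The labels do not say whether a replicate number is shared between the conditions. Deviations from the condition mean correlated by 0.586, 0.0398 and 0.697 for numbers 1, 2 and 3. The value for number 3 was the highest of all pairs, while normoxia library 1 correlated best with hypoxia library 2 (0.641). With so few libraries these correlations cannot decide whether the replicates are paired. With the replicate block 3463 genes were called, 8 members were lower, with ALDH1L2 (adjusted p = 0.0255) and MTHFD2 (0.0415) added, and S phase had 1 higher gene. Of the 39 genes recomputed under these alternatives 0 changed direction. The markers INHA, INHBA, NR5A1 and GATA4, not among them, were not called. They went from -0.02, -0.10, -0.29 and -0.09 to 0.27, 0.20, 0.0049 and 0.21 after scaling. Unknown read depth limits what can be said of SHMT1.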
